A study of Mus musculus with 6 samples.

Results

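The mitochondrial carrier family, the Slc25 genes with the uncoupling protein genes Ucp1 to Ucp3, was examined in MMH cells with Prox1 set against MMH cells with the empty vector. Members were the array features whose platform annotation gives exactly 1 gene symbol that starts with Slc25a or is Ucp1, Ucp2 or Ucp3. This gave 76 features for 46 genes, out of 41230 features with a value and 19087 genes. RefSeq lists 50 mouse genes with such a symbol. Those beyond the 46, Ucp2 among them, had no feature by this rule and so no value here. The family was selected on the score of Slc25a41 in the same comparison, which was known to be very low, and its members were then taken by name. Its values are therefore a description, and the counts of genes that passed the model support nothing beyond it.

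Carriers of this family are small proteins of the inner mitochondrial membrane that exchange metabolites between the matrix and the cytosol. They move ATP and phosphate for respiration, citrate and malate for lipid and glucose synthesis, acylcarnitine for fatty acid oxidation, and ornithine and aspartate for the urea cycle, all of which hepatocytes run at high rates. The uncoupling proteins are members that let protons leak back into the matrix, best known from brown fat.

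MMH cells are Met murine hepatocytes, immortalised mouse liver progenitor (hepatoblast) lines, and the titles carry ED14, read here as embryonic day 14. MMH-Prox1 cells carried an expression construct for Prox1, a homeobox transcription factor of the developing liver, and MMH-pCDNA3.1 cells the vector without it. Both RNAs were hybridised together on each of 6 arrays, with Prox1 RNA in Cy5 on 3 arrays (replicates 1 to 3, the Cy5 arrays below) and in Cy3 on 3 (replicates 4 to 6). The labels do not say whether either line is 1 clone or a pool, or whether RNA for different arrays was drawn from separate cultures, and the spread behind a p-value may thus be technical only.

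The deposited value is a signed ratio of both RNAs, divided so that each array has a standard deviation (SD) of 1. All values below are scores in these SD units, not fold changes and not levels, and scores of different features are not compared as amounts of RNA. The 3 columns with Prox1 in Cy3 were identical in every feature and were counted once, as the Cy3 profile, which left 4 profiles. Positive scores likely mean higher with Prox1, since 1 of the 3 Prox1 features stood at 5.44, 5.22 and 5.17 on the Cy5 arrays and at 6.60 in the Cy3 profile, and its mean over both orientations ranked 4 from the highest of 41230. The other two Prox1 features lay between −0.38 and 0.55, and no label states the direction. Ratios cannot show which cell type markers are present. In the model described below, 3 of 7 measured hepatoblast and hepatocyte markers passed as lower and 0 as higher, and 1 of 4 cholangiocyte markers as lower. Of fibroblast, endothelial and macrophage markers 0 of 5, 0 of 3 and 0 of 2 passed. Of all features 5.03% passed as lower and 3.38% as higher. Effects ran from −5.71 to 0.33 over the hepatoblast and hepatocyte markers and from −3.47 to 0.53 over the cholangiocyte markers. Whether a change in the makeup of the cells takes part in the carrier values was not tested, and fewer cells of a type cannot be told apart from less RNA per cell.

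Among the 46 carrier genes 7 fell and 3 rose with Prox1, and 36 did not pass. The falls were Slc25a41, Slc25a10, Slc25a24, Slc25a43, Slc25a1, Slc25a3 and Slc25a45, and the rises Slc25a27, Slc25a25 and Slc25a33. A gene passed at an adjusted p under 0.05 in limma with the dye orientation as a random block, adjusted by Benjamini-Hochberg over 28617 genes and unnamed features. In that model 8.41% of these 28617, called all features in this text, passed, 5.03% as lower and 3.38% as higher. The effect is the model's weighted mean score over the 4 profiles, in which the Cy3 profile counts for more than each Cy5 array. For Slc25a4, as an example, it was 0.01, where the plain mean of the profiles was 0.69. The median effect was −0.02 over the family and 0.04 over all features. Effects lay within 0.5 of 0 for 23 carriers and beyond 1 in either direction for 15, where 12.4% of all features had an effect beyond 1. In 28 carriers all 4 profiles had the same sign, against 41.8% of all features. Without Cy5 replicate 3, 1 carrier passed as higher and 5 as lower. With a fixed dye term in place of the random block, 12 were higher and 18 lower, in a model where 45.0% of all features passed. With the mean of each orientation as 1 replicate, 0 were higher and 0 lower (limma, smallest adjusted p of the family 0.088, with 15 at an unadjusted p under 0.05). The share of all features that passed was not computed for this fit, nor for the fit without Cy5 replicate 3.

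**Figure D1:**
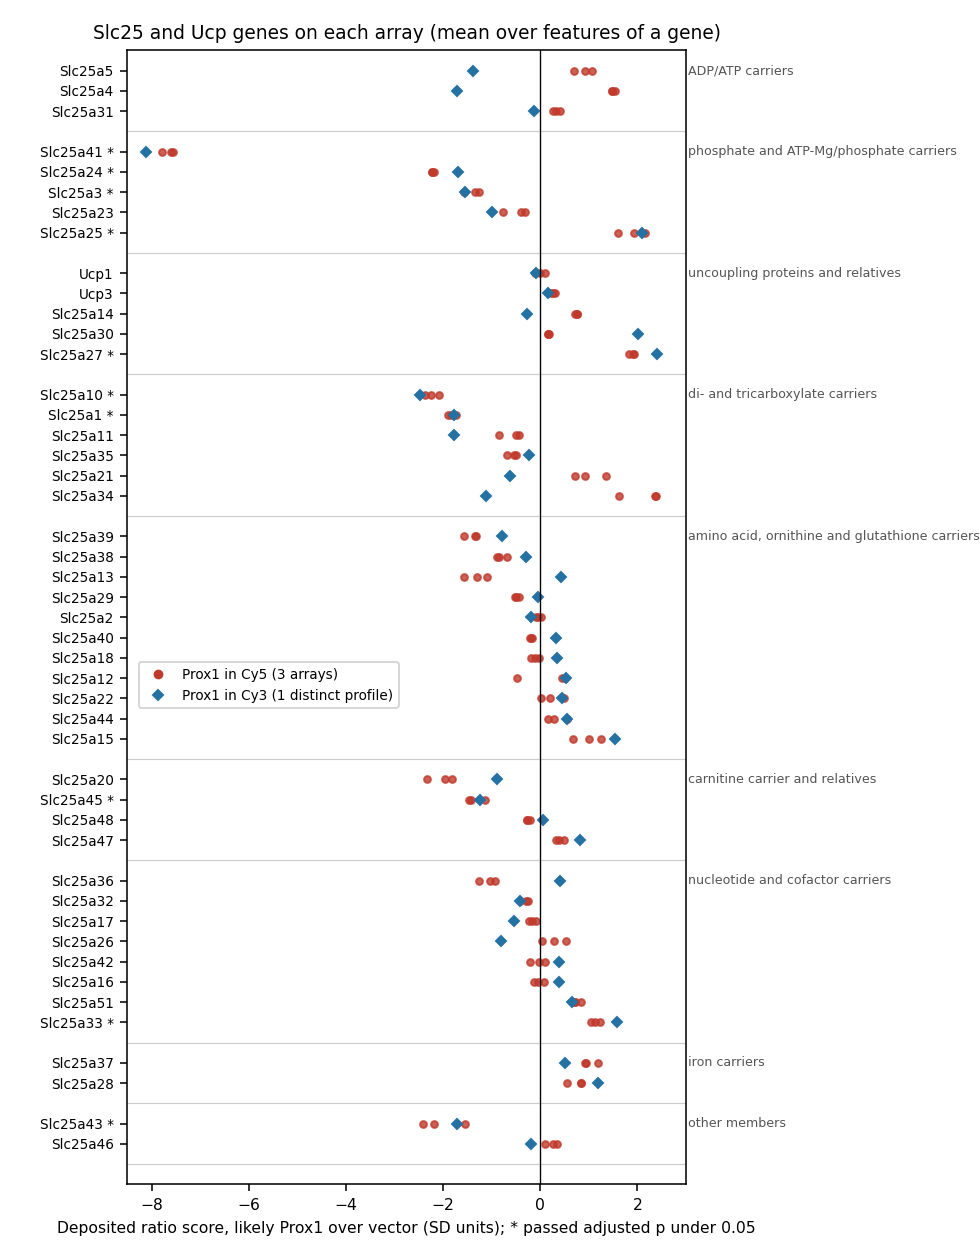
Deposited ratio score (horizontal axis, SD units) of each of the 46 carrier genes, averaged over its features, on the 3 Cy5 arrays (circles) and in the Cy3 profile (diamonds), in blocks by substrate. Slc25a41 stands between −8.11 and −7.57 in all 4 profiles, while every other gene lies between −2.48 and 2.41.

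The carriers of ATP-Mg and phosphate held both the lowest score of the family and a rise. These proteins exchange ATP-Mg for phosphate and so set the adenine nucleotide pool of the matrix. Slc25a23, Slc25a24 and Slc25a25 carry a calcium-binding regulatory part, which Slc25a41 lacks. Slc25a41, with 1 feature, scored −7.78, −7.61 and −7.57 on the Cy5 arrays and −8.11 in the Cy3 profile. The profiles differed little, and the effect of −7.86 ± 0.22 (SE, 4 profiles) ranked 5 from the lowest of 28617. No other carrier came near it.

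Slc25a24 had mean scores of −2.22, −2.22 and −2.18 on the Cy5 arrays and −1.69 in the Cy3 profile, an effect of −1.97 ± 0.21. Tested singly, 7.66% of the 41230 features passed. The features of Slc25a24 differed: 1 stood at −3.05 ± 0.33 and passed singly, the other at −0.89 ± 0.22 and did not. Slc25a25 went the other way, with 1.61, 2.16 and 1.93 on the Cy5 arrays and 2.10 in the Cy3 profile, and an effect of 1.99 ± 0.30. All 3 of its features were positive in every profile, at effects of 1.57, 1.65 and 2.75, of which the one at 1.65 passed singly. The gene did not pass without Cy5 replicate 3. Slc25a23 did not pass, at −0.40, −0.76 and −0.32 on the Cy5 arrays, −0.99 in the Cy3 profile and an effect of −0.72 ± 0.29.

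In the RefSeq gene order Slc25a41 lies on chromosome 17 directly beside Slc25a23, with Khsrp on its other side. Khsrp, which encodes an RNA-binding protein, had an effect of −0.15 ± 0.26. Both neighbours of Slc25a41 thus lay within 1 unit of 0, and neither passed. Another adjacent pair, Slc25a43 and Slc25a5 on the X chromosome, had effects of −1.89 ± 0.42 and −0.16 ± 0.52, and Slc25a29 and Slc25a47 on chromosome 12 had −0.28 ± 0.21 and 0.59 ± 0.21.

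Slc25a3, the carrier that brings phosphate for ATP synthesis into the matrix, fell, with mean scores of −1.26, −1.58 and −1.34 on the Cy5 arrays, −1.54 in the Cy3 profile and an effect of −1.46 ± 0.23. The fall sat mostly in 1 of its 3 features, at −3.25 ± 0.35, while the others stood at −0.73 ± 0.25 and −0.41 ± 0.32 and did not pass. With the median over features in place of the mean, Slc25a3 had an effect of −0.81 and did not pass, nor did it without Cy5 replicate 3.

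**Figure D2:**
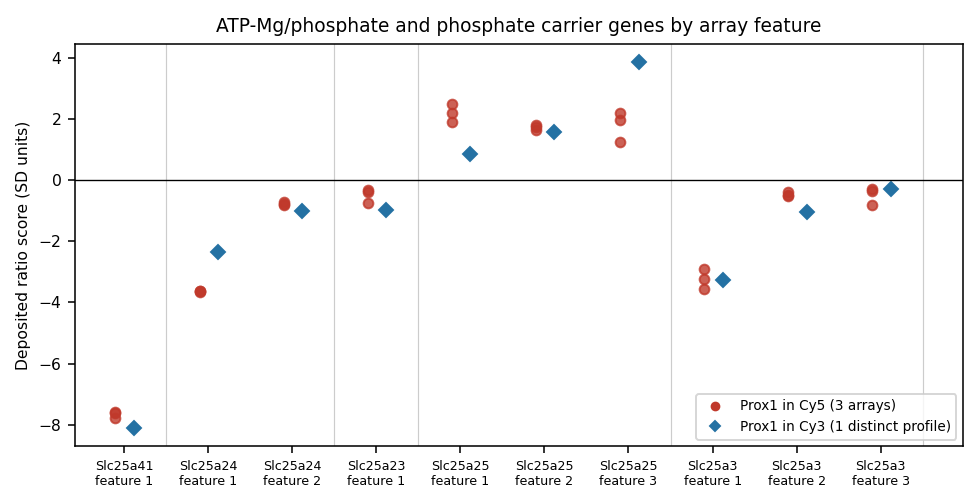
Ratio score (vertical axis, SD units) of every array feature of the ATP-Mg/phosphate carrier genes and the phosphate carrier gene Slc25a3, with 3 circles for the Cy5 arrays and 1 diamond for the Cy3 profile. The 3 features of Slc25a25 are above 0 in all profiles and those of the other 4 genes are below 0.

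Carriers of di- and tricarboxylates included a pair of falls and no rise that passed. Slc25a10, the dicarboxylate carrier, which exchanges malate and succinate for phosphate, scored −2.09, −2.37 and −2.25 on the Cy5 arrays and −2.48 in the Cy3 profile, an effect of −2.35 ± 0.22. Slc25a1, the citrate carrier, which exports citrate for fatty acid and sterol synthesis, scored −1.74, −1.84 and −1.89 on the Cy5 arrays and −1.78 in the Cy3 profile, an effect of −1.80 ± 0.19. Orientations nearly coincided for both. Slc25a11, the 2-oxoglutarate/malate carrier, was negative in all profiles but unevenly, at −0.86, −0.50 and −0.44 on the Cy5 arrays and −1.78 in the Cy3 profile, and its effect of −1.14 ± 0.36 did not pass. Slc25a35 stood at −0.42 ± 0.21, and Slc25a21, the oxodicarboxylate carrier, at 0.25 ± 0.46.

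Slc25a20 exchanges carnitine for acylcarnitine and so admits fatty acids to oxidation. It scored −1.97, −2.34 and −1.81 on the Cy5 arrays and −0.89 in the Cy3 profile, and its effect of −1.51 ± 0.38 did not pass. All 4 values were negative, and the Cy3 profile was the nearest to 0. Of its relatives, Slc25a45 fell, with −1.43, −1.13 and −1.46 on the Cy5 arrays, −1.24 in the Cy3 profile and an effect of −1.29 ± 0.24, but did not pass without Cy5 replicate 1 or 3. Slc25a47 stood at 0.59 ± 0.21 and Slc25a48 at −0.11 ± 0.20.

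Promoter windows of 3 genes that fell, Slc25a1, Slc25a10 and Slc25a3, and of Slc25a33, which rose, are shown as examples from both directions with 1 entry each. They are the RefSeq sequences on GRCm38.p6 from 250 bases before to 50 after the gene start, at chr16:17928170-17928469 (minus strand), chr11:120491587-120491886 (plus strand), chr10:91123918-91124217 (minus strand) and chr4:149774218-149774517 (minus strand). Capitals mark matches on either strand to the GC box GGGCGG, the CCAAT box CCAAT and the E-box CACGTG, which do not overlap here.
Slc25a1: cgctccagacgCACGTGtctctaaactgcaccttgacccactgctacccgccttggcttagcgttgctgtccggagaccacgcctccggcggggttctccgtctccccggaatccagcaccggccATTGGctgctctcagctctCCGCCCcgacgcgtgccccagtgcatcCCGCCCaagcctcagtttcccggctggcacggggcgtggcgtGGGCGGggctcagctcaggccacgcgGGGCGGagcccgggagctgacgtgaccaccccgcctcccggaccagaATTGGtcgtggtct
Slc25a10: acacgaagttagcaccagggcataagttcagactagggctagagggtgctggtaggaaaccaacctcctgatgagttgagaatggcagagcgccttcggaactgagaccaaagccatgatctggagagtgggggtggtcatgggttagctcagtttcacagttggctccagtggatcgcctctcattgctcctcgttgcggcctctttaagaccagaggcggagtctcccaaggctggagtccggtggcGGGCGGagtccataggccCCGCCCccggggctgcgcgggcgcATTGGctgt
Slc25a3: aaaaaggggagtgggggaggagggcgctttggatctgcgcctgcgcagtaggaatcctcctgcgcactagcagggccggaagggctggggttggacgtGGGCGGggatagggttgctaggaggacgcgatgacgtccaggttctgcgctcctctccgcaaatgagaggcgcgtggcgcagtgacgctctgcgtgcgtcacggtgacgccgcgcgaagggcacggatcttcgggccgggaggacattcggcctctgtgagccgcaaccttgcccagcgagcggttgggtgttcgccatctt
Slc25a33: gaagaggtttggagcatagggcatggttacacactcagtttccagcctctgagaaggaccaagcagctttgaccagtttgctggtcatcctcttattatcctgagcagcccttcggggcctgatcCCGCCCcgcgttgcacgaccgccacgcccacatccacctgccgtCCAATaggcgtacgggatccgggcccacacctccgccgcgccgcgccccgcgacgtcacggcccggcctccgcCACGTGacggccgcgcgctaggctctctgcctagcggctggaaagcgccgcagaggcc
Each of the 4 windows held at least 1 GC box, and Slc25a1 held 4. The E-box appeared in Slc25a1, which fell, and in Slc25a33, which rose. Of 45 windows of 36 family genes in the table, 80.0% held a GC box, 46.7% a CCAAT box and 17.8% an E-box. Among the 21262 windows of protein-coding genes these shares were 46.2%, 38.2% and 7.84%. The TATA box TATAAA was in 4.44% of family windows and 12.6% of protein-coding ones. The HNF4 site CAAAGTCCA, found in 0.452% of protein-coding windows, was in 0 of the 45. These matches describe letters in the windows and were not tied to binding or to the scores. Slc25a41 and Slc25a27 had no entry in the table.

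Among the uncoupling proteins and their relatives, Slc25a27 (also named Ucp4) rose and the others with a value did not pass. Ucp2 had no value. Slc25a27 scored 1.83, 1.92 and 1.90 on the Cy5 arrays and 2.41 in the Cy3 profile, an effect of 2.12 ± 0.21 and the highest of the family. Its 3 features passed singly, at 1.36 ± 0.23, 2.03 ± 0.35 and 2.99 ± 0.43. It was the only carrier with more than 1 feature in which every feature passed.

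Ucp1, the uncoupling protein of brown fat, stood at −0.04 ± 0.20 and Ucp3 at 0.22 ± 0.19, with all 4 scores of each gene between −0.11 and 0.31. Slc25a30 scored 0.18, 0.15 and 0.16 on the Cy5 arrays but 2.01 in the Cy3 profile. The gap between orientations came from both of its features, and its effect of 1.02 ± 0.41 did not pass. Slc25a14 (Ucp5) stood at 0.27 ± 0.27.

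Nucleotide and cofactor carriers gave 1 rise. Slc25a33, a carrier of pyrimidine nucleotides, scored 1.05, 1.12 and 1.23 on the Cy5 arrays and 1.58 in the Cy3 profile, an effect of 1.34 ± 0.22, and did not pass without Cy5 replicate 2 or 3. Of its features the one at 1.79 ± 0.35 passed singly and the one at 0.89 ± 0.29 did not. Slc25a36, its close relative for the same substrates, had −0.39 ± 0.38. Slc25a51, the NAD carrier, was positive in every profile, at 0.71, 0.84 and 0.72 on the Cy5 arrays and 0.66 in the Cy3 profile, and did not pass (0.71 ± 0.19). The carriers of coenzyme A (Slc25a42), of folate and FAD (Slc25a32) and of S-adenosylmethionine (Slc25a26), the peroxisomal member Slc25a17 and Slc25a16 had effects between −0.37 and 0.16.

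None of the 11 carriers of amino acids, ornithine and glutathione passed. Slc25a15, which carries ornithine for the urea cycle, had the highest effect of this group, with 1.01, 1.24 and 0.67 on the Cy5 arrays, 1.53 in the Cy3 profile and 1.23 ± 0.32. Slc25a39, a glutathione carrier, had the lowest, with −1.34, −1.58 and −1.32 on the Cy5 arrays, −0.78 in the Cy3 profile and −1.12 ± 0.26. Of its features the one at −1.37 ± 0.28 passed singly and the one at −0.87 ± 0.30 did not. Slc25a15 and Slc25a39 kept 1 sign in every profile.

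Slc25a13, the aspartate/glutamate carrier of liver (citrin), changed sign with orientation, at −1.10, −1.30 and −1.57 on the Cy5 arrays and 0.42 in the Cy3 profile (effect −0.52 ± 0.44). Slc25a12, the other aspartate/glutamate carrier, had features that disagreed. Its feature at 1.70 ± 0.24 passed singly, with scores of 1.44, 1.39 and 1.48 on the Cy5 arrays and 2.01 in the Cy3 profile. Another scored 0.07, 0.01 and −3.01 on the Cy5 arrays and −0.06 in the Cy3 profile, so replicate 3 alone stood apart there. The gene mean of 0.32 ± 0.51 therefore describes no single feature.

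Slc25a38, which supplies glycine for haem synthesis, had −0.58 ± 0.23. Slc25a44 (branched-chain amino acids) had 0.43 ± 0.25, the glutamate carriers Slc25a22 and Slc25a18 had 0.33 ± 0.28 and 0.10 ± 0.22, and Slc25a29, Slc25a2 and Slc25a40 lay between −0.28 and 0.05.

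The mitoferrins, which carry iron for haem and iron-sulphur clusters, were positive in all profiles without passing. Slc25a28 (mitoferrin 2) scored 0.83, 0.84 and 0.56 on the Cy5 arrays and 1.19 in the Cy3 profile, an effect of 0.95 ± 0.24. Slc25a37 (mitoferrin 1) scored 0.94, 0.92 and 1.19 on the Cy5 arrays and 0.50 in the Cy3 profile, an effect of 0.78 ± 0.25. Its 3 features ranged over −0.05, 0.96 and 1.42.

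Slc25a43, whose substrate is not well established, fell, with −2.18, −2.41 and −1.56 on the Cy5 arrays, −1.71 in the Cy3 profile and an effect of −1.89 ± 0.42. Its features stood at −1.90 and −1.89, and neither passed singly. The gene did not pass without Cy5 replicate 1 or 2. Slc25a46, an outer membrane protein of mitochondrial dynamics, scored 0.35, 0.10 and 0.27 on the Cy5 arrays and −0.20 in the Cy3 profile, with features at −0.52, 0.01 and 0.63 and an effect of 0.04 ± 0.23. In 7 of the 21 carriers with more than 1 feature the features lay more than 1 unit apart: Slc25a3, Slc25a12, Slc25a24, Slc25a25, Slc25a27, Slc25a37 and Slc25a46.

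**Figure D3:**
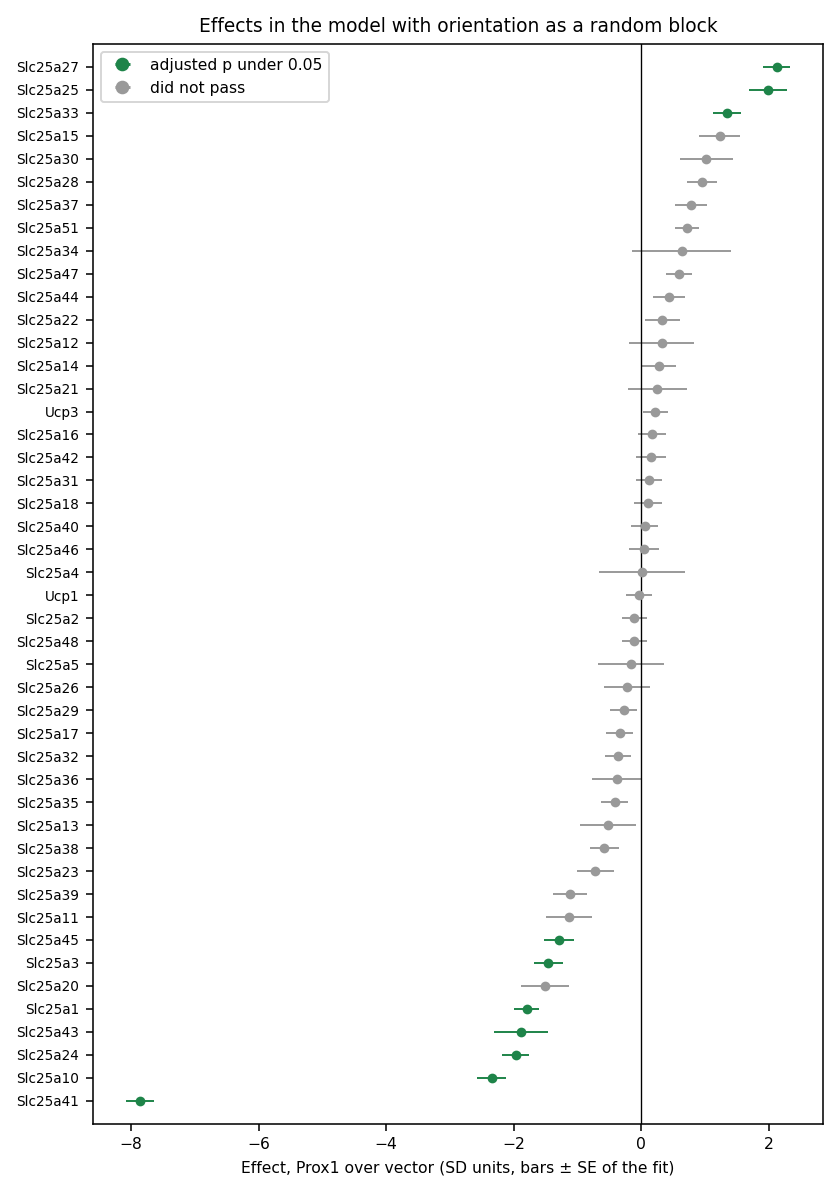
Effect of Prox1 over vector (horizontal axis, SD units, bars ± SE) for the 46 carrier genes in the model with orientation as a random block, ordered by size. The 10 genes that passed are green, from Slc25a41 at −7.86 to Slc25a27 at 2.12.

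The abundant ADP/ATP carriers showed opposite scores in the dye orientations. Slc25a4 and Slc25a5 exchange matrix ATP for cytosolic ADP. Slc25a4 scored 1.53, 1.47 and 1.48 on the Cy5 arrays and −1.72 in the Cy3 profile, and both of its features did so. Slc25a5 scored 0.69, 1.07 and 0.93 on the Cy5 arrays and −1.38 in the Cy3 profile. Their mean effects, 0.01 ± 0.67 and −0.16 ± 0.52, thus average opposite values and show no shared direction. Slc25a31, the testis form, had 0.12 ± 0.21.

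The difference between orientations (Cy5 arrays minus Cy3 profile) is a contrast that the choice of the family did not use. It passed in 15 of the 46 carriers, against 39.1% of all features, 7 of them higher and 8 lower on the Cy5 arrays. The Cy3 side of this test is 1 profile, so its p-values rest on the spread among the Cy5 arrays alone. For the alternatives that follow, the share of all features that passed was not computed. On median-centred profiles 21 passed, 7 higher and 14 lower. With the median over features the split was 9 higher and 6 lower. It was 7 and 4 without Cy5 replicate 1, 8 and 4 without replicate 2, and 7 and 5 without replicate 3. The difference was 3.25 ± 0.34 for Slc25a34, whose substrate is not well established and whose effect was 0.63 ± 0.77 (SE, limma adjusted p = 0.0023 for the difference), and 3.21 ± 0.14 for Slc25a4 (limma adjusted p = 0.00035). It was −1.85 ± 0.14 for Slc25a30 (limma adjusted p = 0.0011). Dye and any other difference between the orientations cannot be told apart here. Of the 10 carriers that passed for Prox1, Slc25a24 and Slc25a27 also differed between orientations as gene means, by −0.52 and −0.52, without a change of sign. In some genes averaging hid larger differences of single features. The Slc25a25 features at 1.57 and 2.75 differed by 1.33 and −2.06, against −0.20 for the gene. The Slc25a27 feature at 2.99 differed by −1.48, the Slc25a33 feature at 1.79 by −1.38, and the Slc25a24 feature at −3.05 by −1.28. Outside the 10, features of Slc25a46 differed by −2.04, 1.07 and 2.28, against 0.44 for the gene. Those of Slc25a17 differed by 1.01, −0.82 and 0.95, against 0.38.

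**Figure D4:**
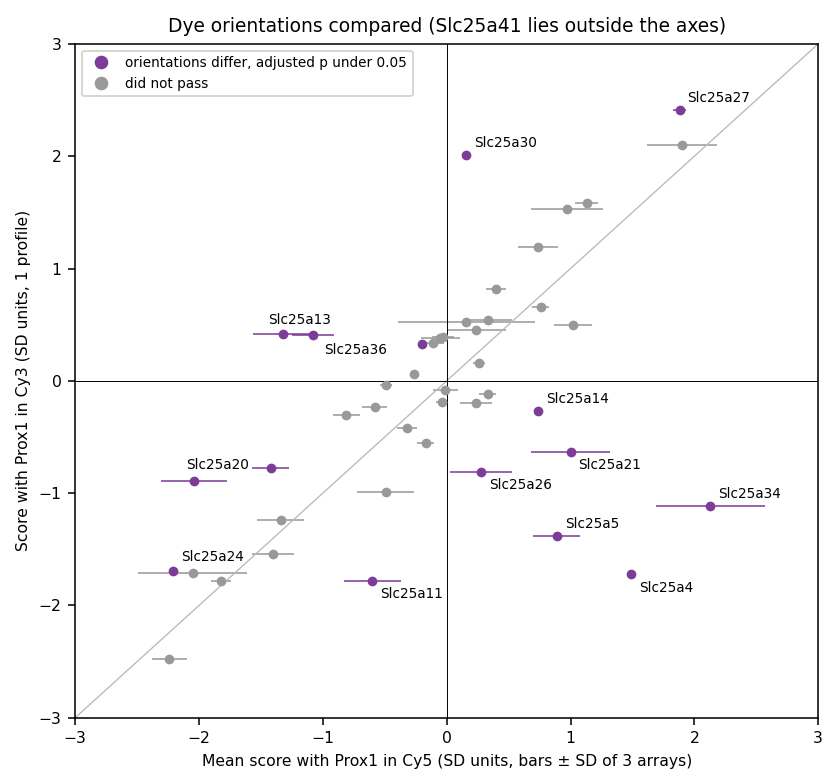
Score in the Cy3 profile (vertical axis) against the mean score on the Cy5 arrays (horizontal axis, bars ± SD of 3 arrays) for the carrier genes, in SD units, with the line of equal scores. The 15 genes in purple differed between orientations, and Slc25a4, Slc25a5 and Slc25a34 lie far below the line.

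Carrier precursors reach the inner membrane through the TOM complex of the outer membrane, small TIM chaperones and the TIM22 insertase. Other mitochondrial transport genes were set beside the family, 34 of 38 listed with a value. Of these 3 rose, 3 fell and 28 did not pass, where 3.38% of all features were called higher and 5.03% lower, and their median effect was 0.27, against 0.04 over all features. The rises were Timm22, the channel of the insertase (1.52 ± 0.23), and the small chaperone genes Timm8a1 (1.35 ± 0.28) and Timm10 (1.31 ± 0.23). Timm22 passed in each fit without 1 Cy5 array, and Timm8a1 and Timm10 in 0 of the 3. Of the 16 import genes 14 had positive effects, where 54.9% of all features did, with a median of 0.51, and Tomm40, the outer membrane channel, had −0.59 ± 0.31. Among those with positive effects, Tomm7, Agk and Tomm20 did not keep 1 sign in every profile. Tomm7 scored 1.24, 1.46 and 1.30 on the Cy5 arrays and −0.72 in the Cy3 profile. Between orientations (Cy5 arrays minus Cy3 profile) the difference was 0.58 for Timm22 and 0.64 for Timm10.

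Timm22 scored 1.87, 1.76 and 1.72 on the Cy5 arrays and 1.20 in the Cy3 profile. The falls included the calcium uniporter channel gene Mcu, at −2.10, −2.09 and −1.71 on the Cy5 arrays and −1.37 in the Cy3 profile (effect −1.69 ± 0.29). Its regulator Micu2 (−1.39 ± 0.22) and the mitochondrial ABC transporter gene Abcb8 (−1.07 ± 0.19) also fell. The pyruvate carrier gene Mpc1 had 0.97 ± 0.23 and did not pass, and the porin genes Vdac1, Vdac2 and Vdac3 had 0.48, 0.25 and 0.21. Each porin gene was positive on every Cy5 array and negative in the Cy3 profile, at −0.05, −0.56 and −0.71 in this order. Their differences between orientations (Cy5 arrays minus Cy3 profile) were 0.97, 1.5 and 1.71. The porin effects thus average values of opposite sign and show no shared direction. Without 1 Cy5 array, 1 gene passed as higher and 1 as lower in each fit, with the share of all features not computed. Mcu did not pass without replicate 1 or 2, Micu2 not without 3, and Abcb8 in none of these fits.

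**Figure D5:**
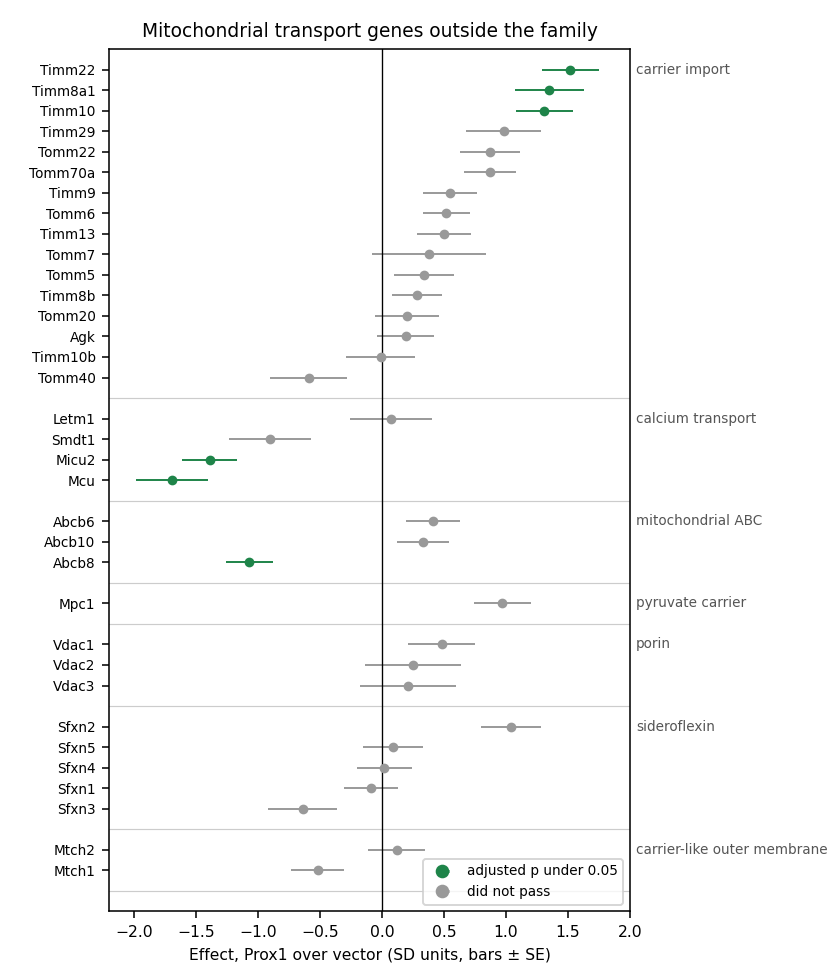
Effect of Prox1 over vector (horizontal axis, SD units, bars ± SE) for 34 mitochondrial transport genes outside the carrier family, in blocks by role. Green marks the 6 that passed, Timm22, Timm8a1 and Timm10 above 0 and Mcu, Micu2 and Abcb8 below.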

How the data were processed

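RNA of MMH-Prox1 and MMH-pCDNA3.1 cells was compared on 2-colour arrays. Per the labels' protocols, RNA was column-purified (phenol-based for replicate 4), DNase-treated, amplified by PCR stopped before saturation and labelled. PCR can distort ratios. The deposited value is a score, a signed ratio-like number that the authors scaled to an SD of 1 per array. The log base, the scanner and the normalization are, in the sources used here, not given. Intensities were not used here, so signal over background is unknown. The number of arrays limits the precision. Medians over features were 0.060, 0.055 and 0.058 on the Cy5 arrays and −0.020 in the Cy3 profile. Correlations over features were 0.915 to 0.930 among the Cy5 arrays and 0.397 to 0.444 between orientations, so the deposited ratios run the same way (features are not independent replicates). Symbols came from the platform annotation, updated by gene identifier, and features of a gene were averaged. limma 3.58.1 (R 4.3.3) was fitted on all 28617 genes and unnamed features, with an intercept and the orientation as a random block (consensus correlation 0.793). Adjustment was by Benjamini-Hochberg. A fixed dye term was used to test the difference between orientations, whose spread comes from the Cy5 arrays alone. The random block was chosen as the model because a fixed dye term leaves the difference between orientations out of the error. Models were run on simulated data drawn with a common spread and, for the Prox1 effect, the fitted correlation within an orientation. That run cannot show whether the p-values hold for these arrays. The members and lists were chosen with earlier results of these data known. Genes given in every profile were the 6 lowest and 6 highest effects, all that passed, those with features over 1 unit apart, and Slc25a41 with its closest relatives. Slc25a4, Slc25a5, Slc25a11, Slc25a13, Slc25a39 and Slc25a51 were added after their values were seen. Relatives were taken by substrate, since protein sequences were not used here. Alternatives are in the closing section.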

Additional observations from a re-analysis of the deposited data

Results flagged for a closer look

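The dye orientations disagreed in sign in 9 carrier genes in which the difference itself also passed limma with a dye term, a combination found in 23.1% of all features. The difference, Cy5 arrays minus Cy3 profile, was 3.25 SD units for Slc25a34, 3.21 for Slc25a4, 2.27 for Slc25a5, 1.63 for Slc25a21, 1.09 for Slc25a26 and 1.01 for Slc25a14. It was −1.74 for Slc25a13, −1.50 for Slc25a36 and −0.53 for Slc25a40. In each, all 3 Cy5 arrays had the sign opposite to the Cy3 profile. None of the 9 passed for Prox1 in the random block model. That model counts the gap between orientations as error, so genes picked for such a gap could hardly pass.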

How the results depend on the processing

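The number of carriers that passed depended on how the orientation was modelled. With a fixed dye term 12 were higher and 18 lower with Prox1, all 10 named above among them, where 45.0% of all features passed. Without a term for orientation 8 were higher and 13 lower, and on the Cy5 arrays alone 16 and 18. The share of all features that passed was not computed for either of these fits, so their counts cannot be read as particular to the family. The same holds below for orientation means, the stricter threshold, median centring and quantile normalization. It also holds for the median over features, the most extreme feature and the fits without 1 Cy5 array. With the mean of each orientation as 1 replicate 0 and 0 passed in limma (15 had an unadjusted p under 0.05, smallest adjusted p = 0.088). At an adjusted p under 0.01, 1 was higher and 4 lower, and 8 differed between orientations. With the sign of all values turned the counts become 7 higher and 3 lower, and each effect keeps its size. Leaving out 1 Cy5 array (consensus correlation kept from all arrays) gave 1 to 3 higher, 5 to 6 lower and 11 to 12 that differed between orientations. Slc25a41, Slc25a10, Slc25a24, Slc25a1 and Slc25a27 passed in each of these fits. Slc25a43 did not pass without replicate 1 or 2, Slc25a45 without 1 or 3, Slc25a33 without 2 or 3, and Slc25a3 and Slc25a25 without 3. With the feature of the most extreme score standing for its gene, Slc25a25 (2.75) and Slc25a43 (−1.90) did not pass, while another feature of Slc25a25 (1.65) passed singly. Slc25a12 (1.70) and Slc25a39 (−1.37) passed instead, so the counts stayed at 3 higher and 7 lower. With the median over features Slc25a3 did not pass and Slc25a39 (−1.12) did, which again left 3 higher and 7 lower. For transport genes outside the family 17 were higher and 7 lower with a fixed dye term, 11 higher without a term, and 1 higher and 1 lower without any 1 array. Median centring and quantile normalization left 3 carriers higher and 7 lower. The turned sign aside, the effect changed direction under at least 1 alternative in 7 of the 46 carriers, with 0 of the 10 that passed among them. Those 10 were called on these same profiles and kept 1 sign in all 4, so this adds no support. On the Cy5 arrays alone Slc25a5 stood at 0.89 (and passed), Slc25a26 at 0.28, Slc25a16 at −0.03, Slc25a18 at −0.11, Slc25a40 at −0.20 and Slc25a42 at −0.05. Without a term for orientation Slc25a5 stood at 0.33, Slc25a26 at 0.01 and Slc25a40 at −0.07. Slc25a4, at 0.01 in the random block model, stood at −0.11 with a fixed dye term and with orientation means, at −0.12 by its most extreme feature, at −0.02 after median centring and quantile normalization, and between −0.04 and −0.02 without 1 Cy5 array. Each score already compares both RNAs within 1 array. Arrays of opposite orientation could not be paired, because they share no replicate number and the Cy3 columns are 1 profile.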
